A study of Mus musculus with 6 samples.

Results

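Mouse genes that have no functional name yet carry a provisional symbol, either Gm with a number, given to predicted genes, or a clone code that ends in Rik, given to full-length cDNAs of the RIKEN collection. The transcripts described here are the 279 of 28471 such rows in the expression table that reached at least 10 TPM (transcript abundance scaled to a fixed total per library) in at least 3 of the 6 libraries, 187 with a Gm and 92 with a Rik symbol. The table holds 55736 rows, of which 8352 meet the same level. RNA was sequenced from wild-type (WT) mouse bone marrow-derived macrophages, which are grown out of marrow cells in culture. The LPS group has 3 libraries of cells given 200 ng/ml lipopolysaccharide, the Toll-like receptor 4 ligand of Gram-negative bacteria, for 24 h, and the control group has 3 libraries of cells taken at 24 h without it. A further number in the LPS titles, 500, has no stated meaning. Whether the 3 libraries of a group are from different animals or cultures is not stated, so each p-value measures spread that may be technical.

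Provisional symbols cover unlike things. Some are ordinary protein-coding genes that no one has named, some are long noncoding RNAs, and many are processed pseudogenes, copies of an mRNA that was reverse transcribed and inserted elsewhere in the genome. Noncoding RNAs often lie beside, or antisense to, a coding gene. A copy that is nearly identical to its parent mRNA receives reads that could have come from either. The description column of the deposited table names 20 members as pseudogenes and 1 as a readthrough, and calls the other 258 predicted genes or RIKEN cDNAs, so it does not separate the classes. Of the 279 members, 274 are found by identifier in GENCODE release M21 (GRCm38 assembly), where 109 are protein coding, 68 noncoding and 97 pseudogenes, and 5 were not matched.

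How alike a copy and its parent can be is seen in the coding sequences, shown here because most of the pseudogene results rest on such pairs. For each pair the stretch of 60 bases with the most differences is given, among gap-free stretches with fewer than 10 differences, with bases that differ in capitals (GENCODE M21 transcripts, GRCm38). Gm28437 lies at chr1:24613189-24613971 on the minus strand, Gm8203 at chr6:116173737-116174123 on the plus strand and Gm4739 at chr10:26107789-26108421 on the plus strand.
Gm28437: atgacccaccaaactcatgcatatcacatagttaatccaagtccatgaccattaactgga
mt-Co3: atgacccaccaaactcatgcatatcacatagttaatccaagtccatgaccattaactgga
Gm10275: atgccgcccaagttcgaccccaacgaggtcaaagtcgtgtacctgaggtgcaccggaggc
Rpl12: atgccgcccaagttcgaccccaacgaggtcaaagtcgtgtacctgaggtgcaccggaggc
Gm8203: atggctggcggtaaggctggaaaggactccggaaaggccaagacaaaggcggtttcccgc
H2afz: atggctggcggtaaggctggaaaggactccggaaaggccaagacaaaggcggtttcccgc
Gm15387: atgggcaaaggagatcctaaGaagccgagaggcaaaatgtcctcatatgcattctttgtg
Hmgb1: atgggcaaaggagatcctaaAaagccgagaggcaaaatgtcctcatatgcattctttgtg
Gm4739: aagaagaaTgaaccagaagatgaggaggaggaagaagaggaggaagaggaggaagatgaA
Hmgb2: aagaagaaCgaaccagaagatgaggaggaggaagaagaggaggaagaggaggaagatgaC
In the first 3 pairs the stretch has 0 differences, in Gm15387 it has 1 and in Gm4739 it has 2. Counted as 31-mers on both strands, 124 of the 274 annotated members share 90% or more of their sequence with transcripts of other genes, 76 share 10 to 90% and 74 share less than 10%. The rule that assigned reads common to several genes is not stated.

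Under the test used throughout, limma on log2(TPM + 1), p-values adjusted by Benjamini-Hochberg across the 12440 genes tested, 75 members were higher and 126 lower in LPS libraries at an adjusted p under 0.05, and 78 did not pass. That is 72.0% of members, against 76.1% of all tested genes and 81.5% of the tested genes at the same level. The groups did not overlap in 201 members (72.0%), against 78.6% of all tested genes and 83.4% of those at the same level. Higher calls made up 26.9% of members, against 16.3% of all tested genes and 18.4% of those at the same level. Lower calls made up 45.2% of members, against 59.8% and 63.1%. The median change was −0.27 for members and −0.44 for all tested genes. TPM has a fixed total, and scaling by the median of ratios, which brings the median of all genes to 0.00, gave 120 members higher and 70 lower. Of the members lower on TPM as deposited, 70 were lower again, 46 no longer passed and 10 turned to higher, while the 75 higher calls were all made again. The direction and call of small falls therefore depend on the scale. At least 2-fold differences were seen in 40 of the higher and 54 of the lower members. Of these, 23 higher and 25 lower members reached 10 TPM in 1 group alone, which fixes their direction. Another 12 and 21 reached it in all 6 libraries. The share of all tested genes with such differences was not counted.

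Members were chosen by their level in these same libraries, which fixes part of the outcome. The 27 members that reached 10 TPM in every LPS library and in no control library were all higher. The 34 that reached it in every control library and in no LPS library were all lower. The choice requires this, so these directions are no finding. Where such members are named below, their values are descriptions, and their p-values are no support for a direction. Of the 164 that reached 10 TPM in all 6 libraries, 38 were higher, 78 lower and 48 did not pass, and of the other 54, 10 were higher, 14 lower and 30 did not pass. Just inside the limit stood 6530403H02Rik, 5730480H06Rik and Gm20463, whose third-highest library had 10.01, 10.09 and 10.11 TPM. Just outside stood Gm17122, Gm10252 and Gm6264 with 9.95, 9.91 and 9.83 TPM.

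**Figure D1:**
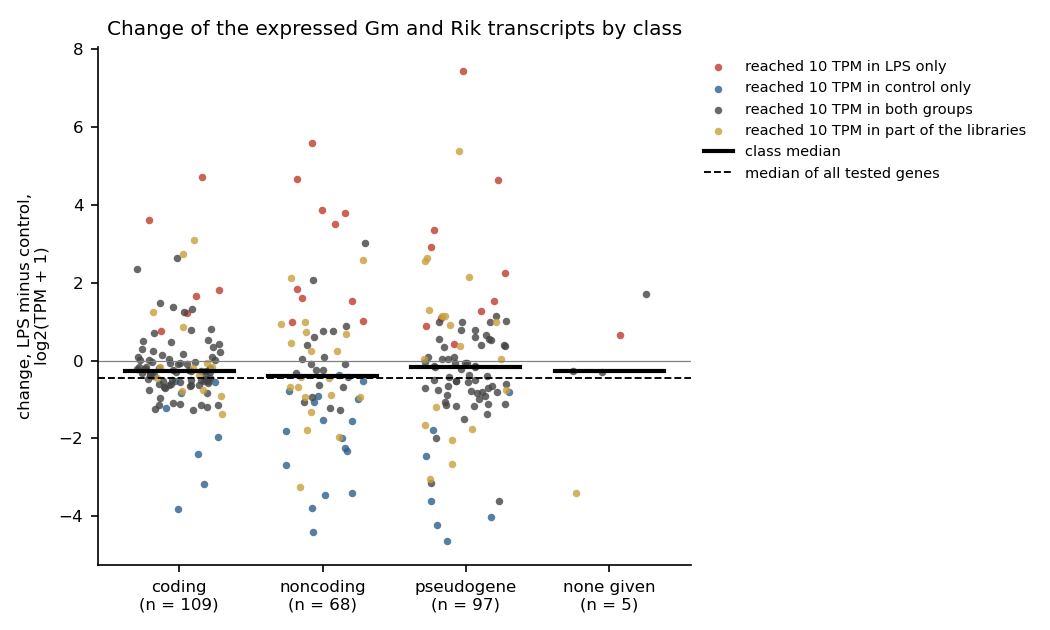
Each point is 1 member, placed by its change (LPS minus control, log2(TPM + 1)) in its annotation class and coloured by the libraries in which it reached 10 TPM. Solid bars are class medians, −0.27 for coding, −0.40 for noncoding and −0.17 for pseudogene members, and the dashed line is the median of all tested genes, −0.44.

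Together the members held 36949, 36993 and 37300 TPM in LPS libraries, against 58099, 58646 and 57067 TPM in control libraries, which is 3.71% and 5.79% of all TPM. Pseudogenes made up most of it, with 28135 ± 147 TPM in LPS and 48583 ± 952 TPM in control libraries (SD, n = 3 each). Of this, 6 copies of mitochondrial genes on chromosome 1 held 15353 ± 474 TPM in LPS and 31264 ± 1002 TPM in control libraries. The other 91 pseudogenes summed to 12782 ± 562 TPM in LPS and 17319 ± 223 TPM in control libraries, a ratio of 0.738. Coding members summed to 6405 ± 145 TPM in LPS and 7211 ± 266 TPM in control libraries. For each of these sums the groups did not overlap, and an exact permutation test (two-sided) returned p = 0.1, below which 3 libraries against 3 cannot go (0.131 after adjustment over 17 sums). Noncoding members summed to 1902 ± 71.3 TPM in LPS and 1855 ± 31.2 TPM in control libraries, which overlap (exact permutation p = 0.5). Under median-of-ratios scaling the log2 ratio of the coding sums is 0.33 in place of −0.17, and that of the noncoding sums 0.53 in place of 0.04.

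The cells expressed macrophage markers, with 35191 ± 1238 TPM in LPS and 26770 ± 843 TPM in control libraries over 6 genes, most of it Lyz2. Lyz2, Adgre1 and Itgam were higher, and Cd68, Csf1r and Mertk lower, in every LPS library than in every control library. Markers of neutrophils moved with the groups, from a list of 10 genes that summed to between 76.9 and 94.0 TPM in LPS and between 4.01 and 6.48 TPM in control libraries. S100a8, which activated macrophages also make, held 72.9 to 89.6 TPM of it in LPS libraries. Camp had 3.12 to 4.19 TPM in LPS and 0 to 0.17 TPM in control libraries. S100a9 overlapped, with 0.21 to 0.83 TPM in LPS and 0 to 1.56 TPM in control libraries, and Ly6g and Retnlg were listed at 0 in all 6 libraries. What part neutrophils have in the results was not tested. The T cell, B cell, dendritic cell, fibroblast and erythroid lists summed to at most 6.67 TPM in any library. Read depth cannot be recovered from TPM, and in such bulk samples fewer cells of a type and less RNA per cell cannot be told apart.

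Among the coding members 26 were higher, 55 lower and 28 did not pass. The 6 largest rises included relatives of genes of innate immunity. Gm43302 encodes a protein whose best match in the deposited table is guanylate-binding protein 6, one of the interferon-induced GTPases that attack intracellular pathogens. It had 27.8, 30.1 and 26.6 TPM in LPS libraries, against 0, 0.31 and 0.07 TPM in control libraries (log2 change 4.70, SE 0.13, limma adjusted p = 8.76e-08). It lies on chromosome 5 at 105214907 to 105293695 over Gbp10, and 100% of its 31-mers occur in other genes, so its reads cannot be set apart from those of its neighbours. Gbp6 itself had 32.5 ± 1.62 TPM in LPS and 0.180 ± 0.0300 TPM in control libraries.

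Gm6377, on the X chromosome, carries the Pfam domain of TASL, the adaptor that works with the lysosomal transporter SLC15A4 in signalling from endosomal Toll-like receptors. Its transcript had 44.8, 43.7 and 37.8 TPM in LPS libraries, against 2.94, 2.55 and 2.13 TPM in control libraries (log2 change 3.61, SE 0.11, limma adjusted p = 1.78e-07). Only 7.12% of its 31-mers occur elsewhere. Gm5150, a relative of the SIRP beta receptors, which pair with DAP12 on myeloid cells, had 92.4, 87.1 and 97.5 TPM in LPS libraries, against 8.90, 10.3 and 10.4 TPM in control libraries. It shares 0.367% of its 31-mers with other genes. Its log2 change of 3.11 (SE 0.08) had a limma adjusted p = 6.46e-08. Every LPS library of these genes lay above every control library, but Gm43302 and Gm6377 reached 10 TPM in LPS libraries alone.

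1600014C10Rik, the mouse counterpart of human C19orf12, a membrane protein of mitochondria and the endoplasmic reticulum, had 77.3, 74.4 and 88.8 TPM in LPS libraries, against 10.6, 13.8 and 11.5 TPM in control libraries. The fold is 6.68 (log2 change 2.65, SE 0.11, limma adjusted p = 6.46e-07), and 2.10% of its 31-mers are shared. Gm21188, whose protein carries an annexin 2 receptor domain in the deposited table, had 139, 136 and 130.5 TPM in LPS libraries, against 23.9, 27.7 and 24.9 TPM in control libraries. Both genes were above 10 TPM in every library, so their rise is not set by the choice of members. Gm49721, best matched by ribonuclease T2-A, had 105, 113 and 114 TPM in LPS libraries, against 20.8, 6.72 and 26.6 TPM in control libraries, with 92.5% of its 31-mers in other genes. Gm49342, which overlaps Pnp and is best matched by purine nucleoside phosphorylase 2, an enzyme of purine salvage, had 514, 527 and 466 TPM in LPS libraries, against 174, 263 and 202 TPM in control libraries, and shares 96.0% of its 31-mers.

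Of the 6 largest coding falls, 4 were in homologs of human genes named as open reading frames. Gm1673, a neuropeptide-like protein homologous to human C4orf48, had 0.85, 0.60 and 0 TPM in LPS libraries, against 19.2, 16.4 and 22.3 TPM in control libraries (log2 change −3.81, SE 0.24, limma adjusted p = 5.54e-06), and shares 0% of its 31-mers. 4930579G24Rik, homologous to human C4orf46, had 1.67, 1.47 and 1.34 TPM in LPS libraries, against 19.1, 24.7 and 21.1 TPM in control libraries. 9430015G10Rik, homologous to human C1orf159, had 3.96, 2.94 and 3.76 TPM in LPS libraries, against 23.9, 23.5 and 21.5 TPM in control libraries. 4930404N11Rik, homologous to human C19orf71, had 2.70 ± 1.03 TPM in LPS and 13.2 ± 1.61 TPM in control libraries. These 4 genes reached 10 TPM in control libraries alone, so that they fell follows from the choice. After median-of-ratios scaling all were still called lower, at log2 changes between −3.50 and −1.56. This is no separate support for their fall, as the same libraries made the choice. Gm42742, best matched by PAGR1A, had 24.0 ± 12.1 TPM in LPS and 53.5 ± 5.60 TPM in control libraries, and its fall (limma adjusted p = 0.0181) did not hold under 4 alternatives. The adjusted p was 0.113 under that scaling, 0.0723 after quantile normalization, 0.0565 when low genes were kept and 0.0555 without control replicate 2. Gm50387, best matched by ZNRD2, had 12.4 ± 4.39 TPM in LPS and 33.5 ± 12.7 TPM in control libraries, a fall (limma adjusted p = 0.00606) that missed the limit under quantile normalization (adjusted p = 0.0507).

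Of the coding members, 44 match proteins still named after a human open reading frame, and 6 of these were higher, 23 lower and 15 did not pass, with a median change of −0.37. Lower calls are common, as 59.8% of all tested genes were lower and 16.3% higher, with a median change of −0.44. At the same level 63.1% were lower and 18.4% higher. The 6 coding members with KRAB or C2H2 zinc finger domains, found in many repressors of transposons, lay between 8.54 and 28.5 TPM in LPS and between 10.6 and 21.2 TPM in control libraries, with 1 higher, 1 lower and 4 that did not pass. Among the highest coding members, Gm49339, over the inhibitory receptor gene Lilr4b, had 687 ± 10.9 TPM in LPS and 991 ± 34.2 TPM in control libraries, and Gm47283, on the Y chromosome, had 289 ± 20.8 TPM in LPS and 411 ± 18.2 TPM in control libraries. Neither of those 2 falls passed on the median-of-ratios scale (adjusted p = 0.483 for Gm49339 and 0.912 for Gm47283). Gm49909, over the myosin light chain gene Myl12b, had 599 ± 11.1 TPM in LPS and 506 ± 30.2 TPM in control libraries (log2 change 0.25, adjusted p = 0.00397). Gm49369, over Ifitm10 and with the aspartyl protease domain of cathepsin D in the deposited table, had 141, 435 and 414 TPM in LPS libraries, against 64.8, 51.7 and 413 TPM in control libraries. Its groups overlap and it did not pass (adjusted p = 0.159), but passed without control replicate 3 (adjusted p = 0.0057).

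**Figure D2:**
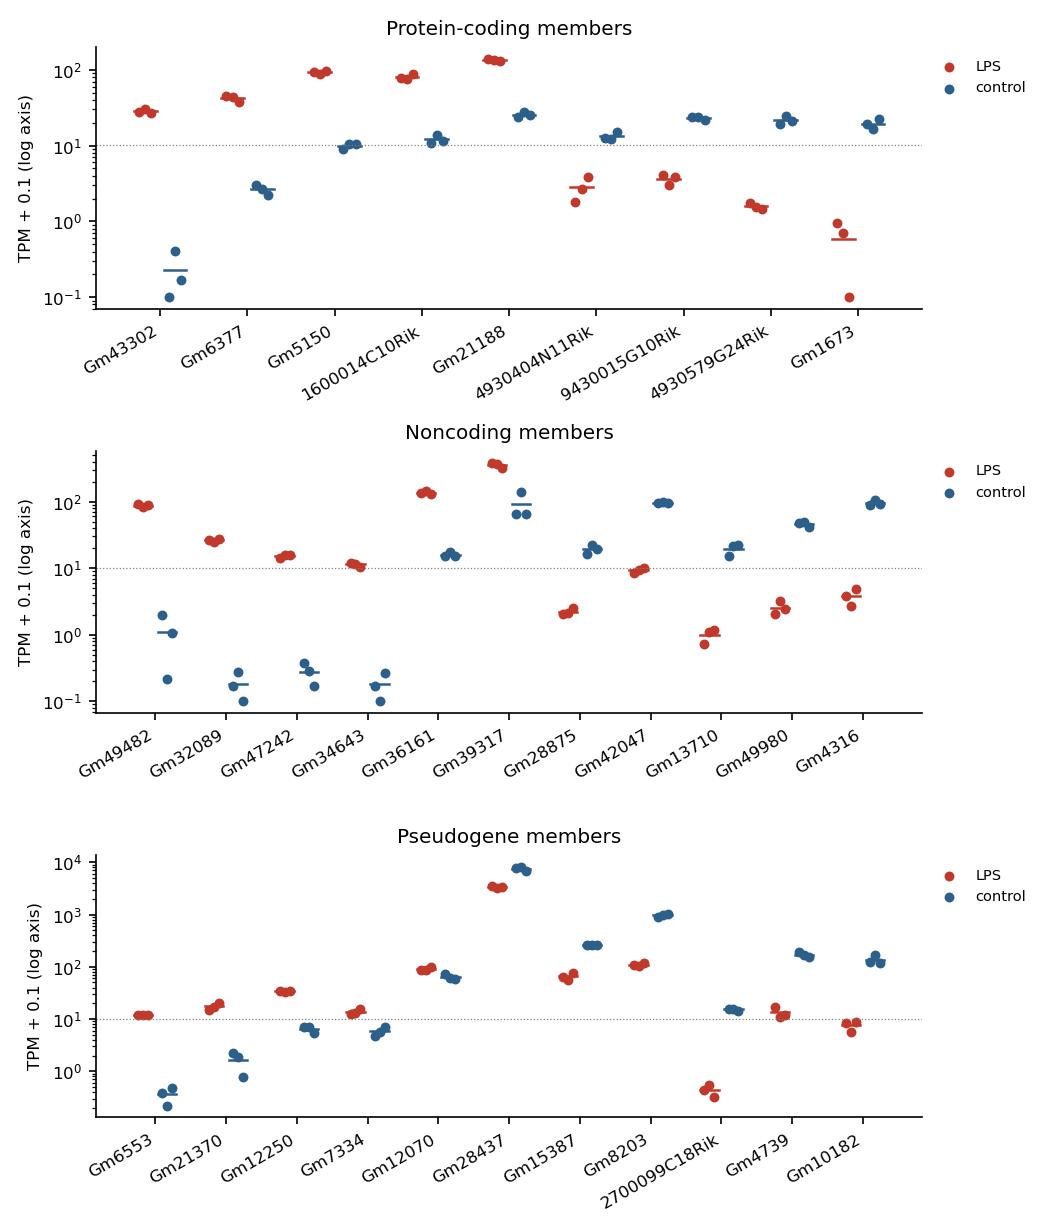
Points are single libraries and bars the group means for members with large differences, in TPM with 0.1 added on a log axis. The dotted line marks 10 TPM, the limit for membership, and in each pair the LPS libraries stand left of the control libraries. Gm5150 sits between 87.1 and 97.5 TPM in LPS libraries, and Gm8203 between 899 and 1038 TPM in control libraries.

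Interferon-inducible GTPases form a family of which several mouse members still have provisional symbols. Under the 14 symbols listed for them, 6 have a row in the table and 2 are members. Gm12250, known as Irgb10, which targets the membranes of intracellular bacteria, had 34.7, 33.2 and 33.8 TPM in LPS libraries, against 6.93, 7.03 and 5.21 TPM in control libraries (log2 change 2.25, SE 0.11, limma adjusted p = 1.57e-06). Gm12250 reached 10 TPM in LPS libraries alone, which fixes the direction of its change. GENCODE M21 lists it as a processed pseudogene, and 0% of its 31-mers are shared. Gm5431, with the domain of this GTPase family, had 34.9, 53.5 and 52.8 TPM in LPS libraries, against 14.8, 20.3 and 13.5 TPM in control libraries (log2 change 1.48, SE 0.20, limma adjusted p = 0.000376). The other 2 tested relatives, Gm4951 and F830016B08Rik, were also higher, at 5.03 ± 0.512 and 1.13 ± 0.125 TPM in LPS libraries, against 0.883 ± 0.0231 and 0.453 ± 0.0723 TPM in control libraries. Of 15 named genes of the GTPase families 13 were tested and all 13 were higher, against 16.3% of all tested genes. The untested Gbp8 went the other way, with 0.35, 0.23 and 0.28 TPM in LPS and 1.03, 1.62 and 0.93 TPM in control libraries. The untested Tgtp1 had 0.46, 0.83 and 0.41 TPM in LPS and 0, 0 and 0.06 TPM in control libraries. Of the untested relatives with provisional symbols, Gm12185 was lower on average in LPS libraries and Gm4841 higher, both under 1 TPM in every library. Igtp had 59.4 ± 0.352 TPM in LPS and 15.7 ± 1.59 TPM in control libraries. Among relatives of class I histocompatibility genes with provisional symbols, 4 were looked up, 1 was tested and it did not pass. The other SIRP beta relative, Gm9733, was higher at 2.35 ± 1.19 TPM in LPS and 0.683 ± 0.599 TPM in control libraries (limma adjusted p = 0.0346).

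The 68 noncoding members comprise 25 lincRNAs, 15 antisense RNAs, 15 processed transcripts, 10 loci of the TEC class, which await experimental support, and 3 others, and 22 were higher, 33 lower and 13 did not pass. Several rose from near 0. Gm49482, antisense to Gpr84, the receptor for medium-chain fatty acids on macrophages, had 91.0, 83.5 and 88.0 TPM in LPS libraries, against 1.88, 0.12 and 0.95 TPM in control libraries (log2 change 5.58, SE 0.31, limma adjusted p = 2.86e-06). Gpr84 had 373, 373 and 383 TPM in LPS libraries, against 6.29, 3.94 and 4.91 TPM in control libraries. The antisense transcript shares 93.7% of its 31-mers with other genes, and whether counting used strand is not given, so reads of the 2 genes cannot be told apart.

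Gm32089, a lincRNA on chromosome 13 at 94289448 to 94295006, 3591 bases from Scamp1, had 26.4, 24.4 and 27.9 TPM in LPS libraries, against 0.07, 0.18 and 0 TPM in control libraries (log2 change 4.65, SE 0.11, limma adjusted p = 4.62e-08). Its 31-mers are almost all its own, with 0.258% shared. Scamp1, a carrier protein of secretory membranes, had 30.7 ± 0.811 TPM in LPS and 14.4 ± 1.33 TPM in control libraries. Gm34643, 22520 bases from Acod1 on the same strand, had 11.3 ± 0.757 TPM in LPS and 0.0800 ± 0.0854 TPM in control libraries, and Acod1, which makes itaconate, had 1475 ± 70.1 TPM in LPS and 1.89 ± 0.522 TPM in control libraries. Gm47242 went the other way from its neighbour. It had 15.2 ± 0.698 TPM in LPS and 0.180 ± 0.105 TPM in control libraries, while Fam111a, a protease of DNA replication and virus restriction 4917 bases away, had 27.7 ± 1.65 TPM in LPS and 65.9 ± 4.41 TPM in control libraries. 1700011B04Rik had 14.7 ± 1.11 TPM in LPS and 0.0800 ± 0.139 TPM in control libraries. Gm49482 and these 4 reached 10 TPM in LPS libraries alone.

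Of the noncoding members that stood above 10 TPM in every library, Gm36161 and Gm39317 rose most. Gm36161 had 137, 144 and 130.3 TPM in LPS libraries, against 15.3, 17.3 and 15.2 TPM in control libraries (log2 change 3.03, SE 0.07, limma adjusted p = 4.48e-08), and 81.6% of its 31-mers occur in other genes. Gm39317, a lincRNA with 0% of its 31-mers shared, had 379, 373 and 322.5 TPM in LPS libraries, against 65.6, 141 and 66.1 TPM in control libraries (log2 change 2.06, SE 0.28, limma adjusted p = 0.000357). Control replicate 2 lies well above the other controls and still below every LPS library. Gm36161 lies within 100000 bases of 3 other members on chromosome 13. Its neighbour Gm21188 rose, as given above. Gm21370, a pseudogene on the opposite strand at 120015264 to 120015972, lies inside Gm36161 (120010390 to 120018931). Gm21370 had 15.1, 16.7 and 20.1 TPM in LPS libraries, against 2.14, 1.75 and 0.66 TPM in control libraries. It reached 10 TPM in LPS libraries alone, which fixes the direction of its change. Whether counting used strand is not given, so reads in the shared span cannot be told apart. Gm36079, which encodes a protein best matched by that of Gm21188 and shares 94.3% of its 31-mers, had 18.3 ± 0.205 TPM in LPS and 19.0 ± 2.38 TPM in control libraries and did not pass (adjusted p = 0.716). In all, 28 members lie in 11 such groups.

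The largest noncoding falls were in Gm4316 and Gm49980. Gm4316 had 3.70, 2.61 and 4.75 TPM in LPS libraries, against 89.7, 107 and 93.6 TPM in control libraries (log2 change −4.41, SE 0.17, limma adjusted p = 4.43e-07). Gm49980 had 1.93, 3.12 and 2.30 TPM in LPS libraries, against 47.0, 49.5 and 41.5 TPM in control libraries. Gm4316 shares 37.6% of its 31-mers with other genes and Gm49980 57.9%. Both reached 10 TPM in control libraries alone, so their direction follows from the choice. Both are best matched by a retrovirus-related Pol polyprotein in the deposited table. Of the 5 members with a Gag, Pol or reverse transcriptase match, these 2 and Gm26740 were lower, while Gm47164 and Gm48493 were higher. This set was chosen after its values were seen. Gm47164 had 15.2 TPM in LPS and 8.82 TPM in control libraries on average, and Gm48493 had 12.3 TPM in LPS and 3.59 TPM in control libraries.

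Some noncoding members fell with a coding neighbour and some did not. 2510016D11Rik, inside the lysosomal channel gene Tpcn1, had 1.07, 1.09 and 0.86 TPM in LPS libraries, against 21.5, 23.5 and 18.6 TPM in control libraries. Tpcn1 had 9.09 ± 0.422 TPM in LPS and 107 ± 9.26 TPM in control libraries. Gm28875, 3244 bases from the nuclear envelope gene Syne3 and with 0% of its 31-mers shared, had 2.13 ± 0.245 TPM in LPS and 19.2 ± 2.68 TPM in control libraries, and Syne3 had 2.60 ± 0.154 TPM in LPS and 20.7 ± 0.990 TPM in control libraries. Gm13710 had 0.64, 1.01 and 1.08 TPM in LPS libraries, against 15.1, 21.4 and 22.1 TPM in control libraries, but Tfpi, the inhibitor of tissue factor 23985 bases away, had 15.1 ± 1.46 TPM in LPS and 15.8 ± 1.65 TPM in control libraries and did not pass (adjusted p = 0.631). Gm42047 has 72.3% of its 31-mers in other genes. It had 8.36, 9.17 and 10.1 TPM in LPS libraries, against 96.1, 98.3 and 95.9 TPM in control libraries. Klhdc4, 3678 bases away, had 24.6 ± 0.938 TPM in LPS and 25.5 ± 2.60 TPM in control libraries (adjusted p = 0.636). Of these, 2510016D11Rik, Gm28875 and Gm13710 reached 10 TPM in control libraries alone, which fixes the direction of their change.

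Over all noncoding members, 33 overlap a named coding gene and 35 do not. Of the 30 overlapped genes that were tested, 19 were called in the direction of the member and 2 in the opposite direction. Of the 25 tested nearest genes without overlap, 13 were called in the same direction and 6 in the opposite one. These counts stand against 59.8% of all tested genes called lower and 16.3% higher, so pairs of lower calls are common, and whether the 2 shares differ was not tested. The choice of members also fixed the direction of some. Of the noncoding members, 10 reached 10 TPM in LPS libraries alone and 17 in control libraries alone, and those with a tested neighbour enter these counts. In 14 of the 33 overlapping members 90% or more of the 31-mers occur in other genes.

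**Figure D3:**
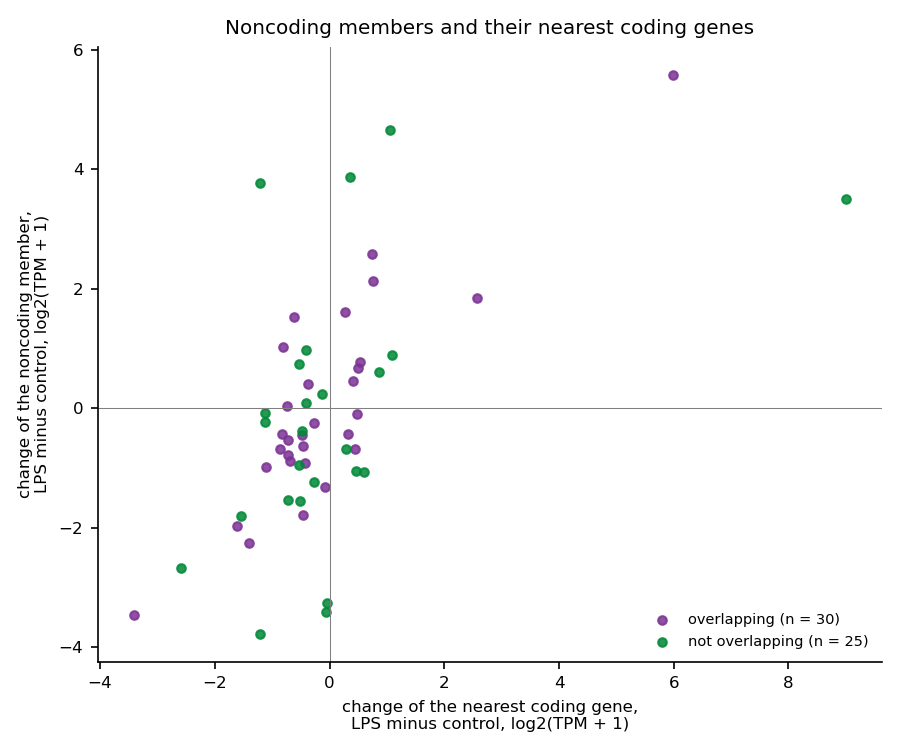
Each point is a noncoding member, with its change (vertical) against that of the nearest named coding gene (horizontal), both LPS minus control on log2(TPM + 1). The 30 overlapping and 25 non-overlapping pairs have points in the quadrants of like direction and of opposite direction, with the pair of Gm34643 and Acod1 farthest right at 9.01.

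1810058I24Rik is listed as a lincRNA in GENCODE M21 but is known to encode a mitochondrial micropeptide, STMP1 or Mm47, that has been linked to the NLRP3 inflammasome in mouse macrophages. It had 36.7, 31.9 and 36.4 TPM in LPS libraries, against 100, 78.7 and 80.8 TPM in control libraries (log2 change −1.27, SE 0.10, limma adjusted p = 2.32e-05), and kept a lower call after median-of-ratios scaling (log2 change −0.79, adjusted p = 0.000507). Of the 6 highest noncoding members, the 4 other than Gm36161 and Gm39317 changed by less than 1 on the log2 scale. Gm20559, 26129 bases from Samd9l, had 92.3 ± 18.9 TPM in LPS and 48.6 ± 5.43 TPM in control libraries, beside 61.4 ± 0.481 TPM in LPS and 28.3 ± 2.22 TPM in control libraries for Samd9l itself. Gm49759, within the pyruvate kinase gene Pkm, had 81.3 ± 5.23 TPM in LPS and 47.2 ± 2.61 TPM in control libraries. D130009I18Rik had 155, 96.2 and 135 TPM in LPS libraries, against 181, 93.0 and 144 TPM in control libraries, and did not pass (adjusted p = 0.775). Gm42031 had 149 ± 11.3 TPM in LPS and 186 ± 7.17 TPM in control libraries, a log2 change of −0.33 that became 0.17 on the median-of-ratios scale.

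Most pseudogene members are near copies of an mRNA. Of the 97, 25 were higher (25.8%), 38 lower (39.2%) and 34 did not pass, against 16.3% higher and 59.8% lower among all tested genes. At the same level 18.4% were higher and 63.1% lower. The choice fixed the direction of 10 pseudogenes that reached 10 TPM in LPS libraries alone and of 7 that reached it in control libraries alone. For 69 members, 66 of them pseudogenes, 90% or more of the 31-mers occur in 1 named coding gene, 62 such genes in all. Copy and gene were both higher in 13 pairs, both lower in 27, and both without a call in 14. In 8 of the 13 the gene is Gapdh. Lower calls are common among all tested genes, so pairs of lower calls are common too. In 11 pairs the gene was lower and the copy did not pass. Opposite calls were made in 1 pair, Gm11518 and Rpl27. In the other 3 pairs the copy was called and its gene was not. The copy was above its gene in all 6 libraries in 17 pairs and below it in 33.

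**Figure D4:**
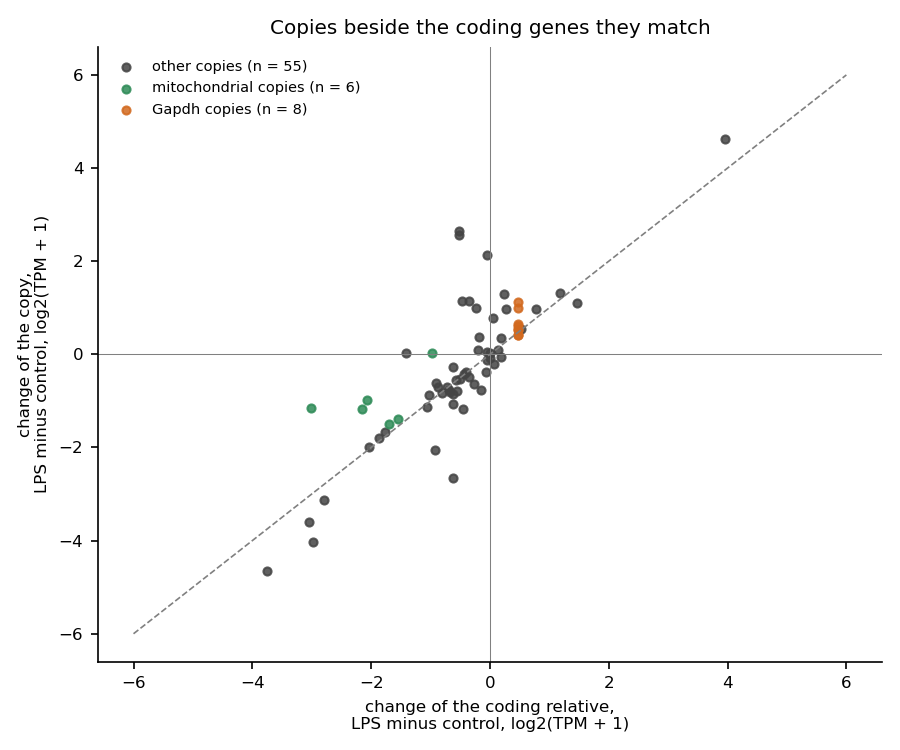
Each point is 1 of the 69 copies, with its change (vertical) against that of the coding gene it matches (horizontal), both LPS minus control on log2(TPM + 1). The dashed line marks equal change. The 8 Gapdh copies lie at 0.40 to 1.13 with Gapdh at 0.47, and Gm11518 lies at 0.99 with Rpl27 at −0.24.

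A nuclear insertion of mitochondrial DNA on chromosome 1 holds 6 neighbouring pseudogene members. They summed to 15897, 15132 and 15029 TPM in LPS libraries, against 31759, 31922 and 30111 TPM in control libraries, while the 13 mitochondrially encoded mRNAs summed to 21657 ± 697 TPM in LPS and 50004 ± 2323 TPM in control libraries. Gm28437, which has every 31-mer of its transcript in the cytochrome oxidase subunit gene mt-Co3, had 3541, 3250 and 3308 TPM in LPS libraries, against 7604, 7997 and 6843 TPM in control libraries (log2 change −1.15, SE 0.07, limma adjusted p = 5.23e-06). mt-Co3 itself was listed at 0.28, 238 and 0.28 TPM in LPS libraries, against 185, 0.36 and 811 TPM in control libraries. The copy was steady and above the gene in all 6 libraries, and the gene varied within a group by more than the group means differ. Added together, copy and gene had 3446 ± 122 TPM in LPS and 7813 ± 173 TPM in control libraries.

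Gm28661, which matches mt-Co2, had 5104 ± 206 TPM in LPS and 10074 ± 69.8 TPM in control libraries, and mt-Co2 had 85.5 ± 68.3 TPM in LPS and 290 ± 86.2 TPM in control libraries. Gm10925 (mt-Atp6), Gm10222 (mt-Nd4l) and Gm28438 (mt-Nd3) also stood above their genes in every library, and all 3 fell. Gm29216, which matches mt-Co1, had 2281, 2272 and 2508 TPM in LPS libraries, against 2744, 1841 and 2426 TPM in control libraries, and did not pass (log2 change 0.03, SE 0.14, adjusted p = 0.860), while mt-Co1 had 6585 ± 140 TPM in LPS and 13017 ± 858 TPM in control libraries. Together these 2 had 8939 ± 155 TPM in LPS and 15354 ± 497 TPM in control libraries. The direction of Gm29216 turned under quantile normalization (−0.06) and without LPS replicate 3 (−0.02) or control replicate 2 (−0.13), and it passed as higher after median-of-ratios scaling (0.53).

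**Figure D5:**
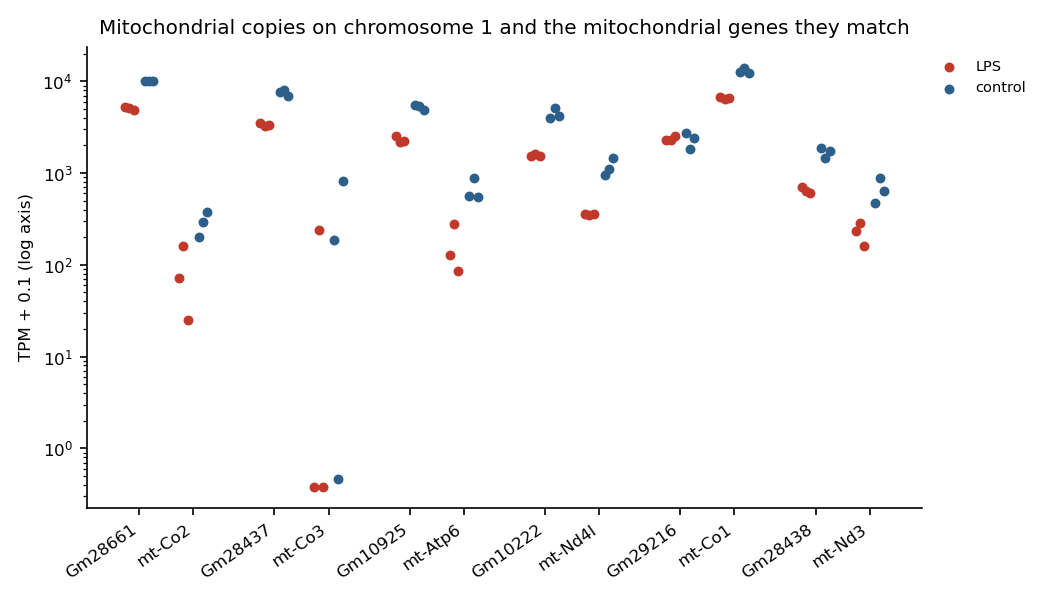
Points are single libraries, in TPM with 0.1 added on a log axis, for the 6 mitochondrial copies on chromosome 1 and, right of each, the mitochondrial gene it matches. The copies other than Gm29216 lie above their genes in every library, and mt-Co3 ranges between 0.28 and 811 TPM.

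Several copies with large falls, picked from the members that fell most, match named genes that fell. Gm8203, with all its 31-mers in the histone variant gene H2afz, had 109.6, 101 and 117 TPM in LPS libraries, against 899, 963 and 1038 TPM in control libraries (log2 change −3.14, SE 0.07, limma adjusted p = 4.72e-08). H2afz had 125, 133 and 117 TPM in LPS libraries, against 876, 798 and 946 TPM in control libraries. Gm4739, a copy of the DNA-bending protein gene Hmgb2, had 17.1, 10.9 and 11.7 TPM in LPS libraries, against 189, 170 and 152 TPM in control libraries, and Hmgb2 had 10.6 ± 0.473 TPM in LPS and 94.4 ± 8.37 TPM in control libraries. Gm15387, a copy of Hmgb1, had 65.1 ± 9.80 TPM in LPS and 260.5 ± 4.91 TPM in control libraries. Gm10182, a copy of the nucleosome-binding Hmgn2, had 7.47 ± 1.66 TPM in LPS and 136 ± 26.6 TPM in control libraries.

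Gm15452, a copy of the cyclin-dependent kinase subunit gene Cks2, was listed at 0, 5.98 and 0 TPM in LPS libraries, against 52.6, 52.9 and 37.0 TPM in control libraries, and Cks2 had 5.59 ± 0.940 TPM in LPS and 86.9 ± 4.47 TPM in control libraries. Gm13577, which shares 80% of its 31-mers with Hmgb1, was listed at 0, 5.03 and 0 TPM in LPS libraries, against 22.7, 61.9 and 25.8 TPM in control libraries. 2700099C18Rik is a pseudogene with few shared 31-mers (21.1%), and had 0.34, 0.44 and 0.22 TPM in LPS libraries, against 15.3, 15.8 and 14.3 TPM in control libraries. On the median-of-ratios scale Gm8203, Gm4739, Gm10182, Gm15452, Gm13577 and 2700099C18Rik kept a lower call, at log2 changes between −4.32 and −2.64. Of these, Gm8203 and Gm4739 reached 10 TPM in all 6 libraries, and the other 4 in control libraries alone, so that they fell follows from the choice. For those 4 the lower calls on this scale are no separate support.

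Copies of ribosomal protein genes number 9, of which 6 were lower and 1 higher, beside 79 lower and 1 higher of 87 tested ribosomal protein genes. Of all tested genes 59.8% were lower and 16.3% higher, and of those at the same level 63.1% and 18.4%. With 9 copies, whether their share differs from these was not tested. Gm10275, a copy of Rpl12, had 503 ± 25.8 TPM in LPS and 1138 ± 29.8 TPM in control libraries, and Rpl12 had 13.8 ± 0.764 TPM in LPS and 19.5 ± 3.04 TPM in control libraries, so the copy stood above the gene in all 6 libraries. Gm15500 stood likewise above Rpl5, with 503 ± 11.1 TPM in LPS and 857 ± 16.6 TPM in control libraries, against 37.7 ± 2.43 and 41.8 ± 1.44 TPM of Rpl5. Gm10443, a copy of Rps28, had 1221 ± 111 TPM in LPS and 2131 ± 252 TPM in control libraries. Its log2 change of −0.80 shrank to −0.30 on the median-of-ratios scale (limma adjusted p = 0.0439).

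In 13 pairs copy and gene both rose. The 8 copies of the glycolytic gene Gapdh summed to 2391, 2270.1 and 2416 TPM in LPS libraries, against 1755, 1660.3 and 1608 TPM in control libraries, and all 8 were higher. Gapdh had 6335 ± 363 TPM in LPS and 4581 ± 125 TPM in control libraries. Gm10053, listed as coding, is a copy of the cytochrome c gene Cycs and had 71.3 ± 2.62 TPM in LPS and 28.0 ± 2.16 TPM in control libraries, while Cycs had 36.1 ± 2.42 TPM in LPS and 15.4 ± 1.95 TPM in control libraries. Gm7334, a copy of the antiproliferative gene Btg3, had 13.3 ± 1.58 TPM in LPS and 5.75 ± 1.12 TPM in control libraries, and Btg3 had 5.17 ± 1.07 TPM in LPS and 1.23 ± 0.193 TPM in control libraries. Gm50083, a copy of Tma16 of 202 bases, had 36.0, 124 and 28.5 TPM in LPS libraries, against 8.08, 0 and 0 TPM in control libraries, and Tma16 had 88.6 ± 1.80 TPM in LPS and 4.83 ± 1.07 TPM in control libraries. Not among these pairs are Gm6553 and Gm48789. Gm6553, best matched by the 12-HETE receptor Gpr31b, had 11.9, 11.7 and 11.6 TPM in LPS libraries, against 0.28, 0.12 and 0.38 TPM in control libraries. Gm48789, of 129 bases, had 241, 124 and 175 TPM in LPS libraries, and every control library lists it at 0. Gm7334, Gm50083, Gm6553 and Gm48789 reached 10 TPM in LPS libraries alone, which fixes the direction of their change.

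Short transcripts were unsteady. Of the 28 members under 300 bases 2 were higher, 6 lower and 20 did not pass, whereas of the 146 of 1000 bases or more 44 were higher, 72 lower and 30 did not pass. In 13 members a library was listed at 0 while another of its group gave 10 TPM or more, and 11 of these are under 300 bases. Gm10060, of 111 bases, had 166, 256 and 546 TPM in LPS libraries, against 327, 0 and 0 TPM in control libraries, and did not pass (adjusted p = 0.0519), but passed without control replicate 1 (adjusted p = 1.37e-05), on the median-of-ratios scale (0.0484) and without Saa3 and Fth1 (0.0489). Gm10241, a copy of Sumo2, had 20.5, 9.30 and 18.6 TPM in LPS libraries, against 0.02, 0 and 16.5 TPM in control libraries (adjusted p = 0.0552). It passed without control replicate 3 (adjusted p = 8.1e-05), on the median-of-ratios scale (0.0402), after quantile normalization (0.0383) and without Saa3 and Fth1 (0.0455). Among the 5 members not matched in GENCODE, Gm19465 had 615, 564 and 576 TPM in LPS libraries, against 121, 328 and 142 TPM in control libraries (log2 change 1.71, SE 0.34, limma adjusted p = 0.00253), and Gm2296 had 12.2 ± 3.01 TPM in LPS and 7.32 ± 1.54 TPM in control libraries (adjusted p = 0.0161). Gm2296 reached 10 TPM in LPS libraries alone, which fixes the direction of its change. Gm52964 and Gm53012 averaged 19.4 and 13.6 TPM in LPS libraries, against 23.9 and 16.6 TPM in control libraries, and Gm22988 had 0, 0 and 24.8 TPM in LPS libraries, against 89.1, 29.9 and 9.98 TPM in control libraries, and these 3 did not pass. Gm22988 passed as lower without LPS replicate 3 (adjusted p = 0.00212) or control replicate 3 (0.0427) and with a pseudocount of 0.1 (0.0471). Gm52964 passed as lower without LPS replicate 1 (adjusted p = 0.0244) or control replicate 1 (0.0417).

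Promoter windows, 250 bases before to 50 after a RefSeq start (GRCm38.p6), were found for 103 members by symbol, 130 windows in all. Motifs were searched on both strands, and those of different kinds may overlap. The interferon-stimulated response element, searched as GAAA and GAAA with any 2 bases between them, was in 4 of 33 windows (12.1%) of members called higher, in 4 of 60 (6.67%) of those called lower, in 2 of 37 (5.41%) of those not called and in 3.44% of all 32851 windows. The NF-kB motif was in 6.06%, 11.7% and 8.11% of these member windows and in 8.46% of all windows, and CCAAT in 45.5%, 36.7% and 40.5%, against 37.4% of all. With so few windows these shares are descriptions. The calls of members that reached 10 TPM in 1 group alone, Gm12250 among them, were fixed by the choice. Of the 4 members called higher whose windows hold the first motif, the 3 with the largest changes are shown with matches in capitals, Gm5150 (chr3:16006283-16006582, minus strand), Gm36161 (chr13:120010092-120010391, plus strand) and Gm12250 (chr11:58183593-58183892, plus strand), whose RefSeq start lies upstream of its GENCODE start. The fourth is I830077J02Rik, which had 14.4 TPM in LPS and 5.62 TPM in control libraries on average.
Gm5150: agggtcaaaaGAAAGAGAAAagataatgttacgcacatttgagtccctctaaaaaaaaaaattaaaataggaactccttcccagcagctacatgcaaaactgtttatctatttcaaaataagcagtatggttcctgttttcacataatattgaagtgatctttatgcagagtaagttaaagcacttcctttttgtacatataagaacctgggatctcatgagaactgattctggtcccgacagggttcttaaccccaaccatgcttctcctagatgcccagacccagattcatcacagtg
Gm36161: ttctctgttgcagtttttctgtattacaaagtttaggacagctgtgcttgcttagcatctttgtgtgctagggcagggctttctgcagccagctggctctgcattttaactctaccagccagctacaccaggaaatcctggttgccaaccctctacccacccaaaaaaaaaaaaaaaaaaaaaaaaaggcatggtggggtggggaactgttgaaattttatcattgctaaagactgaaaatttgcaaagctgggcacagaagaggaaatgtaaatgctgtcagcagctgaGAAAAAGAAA
Gm12250: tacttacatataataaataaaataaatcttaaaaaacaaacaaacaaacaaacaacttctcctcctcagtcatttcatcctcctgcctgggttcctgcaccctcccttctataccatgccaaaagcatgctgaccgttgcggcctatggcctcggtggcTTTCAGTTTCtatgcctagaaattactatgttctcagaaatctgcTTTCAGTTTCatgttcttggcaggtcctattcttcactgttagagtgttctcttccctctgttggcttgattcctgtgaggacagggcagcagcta
The window of Gm12250 holds 2 matches and those of Gm5150 and Gm36161 hold 1 each. A match is a description of these letters and not a binding site.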

How the data were processed

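Gene expression was read from 1 table of the whole series, in which the authors deposited TPM for 3 LPS and 3 control libraries, with gene length, description, best protein match and Pfam domains. Per the submitters' processing notes, Bowtie 0.12.2 was used, and mm8 and mm9 are named as builds without saying for what. No source used here names the quantifier, the annotation or the strand setting. The deposited TPM values sum to 1000000 in each library to within 1 TPM and keep no read depth, so no counting error can be given, an exact 0 can be a failed estimate, and a gene that takes a larger share lowers all others.

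The 12440 genes that reached 1 TPM in 3 or more libraries were tested with limma 3.58.1 in R 4.3.3 (lmFit, then eBayes with a trend). The response was log2(TPM + 1), the contrast LPS over control, the p-values two-sided with Benjamini-Hochberg adjustment across these genes, and the limit 0.05. Changes on this scale understate those of low genes. The fit was tested on simulated data. Sums were compared by exact permutation tests. Classes, coordinates and 31-mers came from GENCODE M21 by gene identifier, of which 274 of 279 matched. A coding gene that holds 90% or more of a member's 31-mers is called the gene it copies.

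The members, gene lists and rules were chosen with earlier results of these data known. Members named are, in each class, the 6 highest, the 6 largest rises and the 6 largest falls, then list members and those beside the limit, plus nearest or copied genes, apart from 1 coding member that is not reported here. Some other copies, relatives, retroviral matches and promoter examples were chosen after their values were seen. Alternatives were another pseudocount (0.1), median-of-ratios scaling, quantile normalization, leaving out Saa3 and Fth1, no filter, a replicate block, each library left out and other member limits.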

Additional observations from a re-analysis of the deposited data

How the results depend on the processing

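Scaling mattered most. Of 75 higher and 126 lower members, median-of-ratios scaling gave 120 and 70 and quantile normalization 113 and 69, in both of which all 75 higher calls were made again. With 20 TPM as the member limit 48 were higher and 81 lower, and with 10 TPM in all 6 libraries 38 and 78, as fewer members then enter. Leaving out 1 library gave 68 to 75 higher and 115 to 127 lower. The log2 ratio of summed TPM was −0.17 for coding, 0.04 for noncoding and −0.79 for pseudogene members. It moved to 0.33, 0.53 and −0.29 under median-of-ratios scaling and to 0.0792, 0.29 and −0.54 without Saa3 and Fth1, and lay between −0.19 and −0.14, 0.01 and 0.06, and −0.80 and −0.78 with 1 library left out. The pseudogene sum includes the 6 mitochondrial copies on chromosome 1, and its ratio without them was not computed under these settings. Small changes turned for Gm29216 (−0.0564 under quantile normalization, and −0.134 to 0.154 with 1 library left out, below 0 without LPS replicate 3 or control replicate 2), for Gm42031 (0.17 under median-of-ratios scaling), for D130009I18Rik (0.41 under median-of-ratios scaling, 0.0558 under quantile normalization, 0.16 without Saa3 and Fth1, and −0.349 to 0.126 with 1 library left out, above 0 without LPS replicate 2 or control replicate 1), for Gm52964 (0.18 and 0.19 under the 2 scalings) and for Gm53012 (0.18 and 0.25). The cause was not tested. With the replicate number as a block 75 members were higher and 123 lower, and Gm10241 passed (adjusted p = 0.0283). Deviations of same-numbered libraries correlated at 0.074, −0.151 and 0.076, and those of differently numbered ones at −0.192 to 0.119. Such values cannot tell whether same-numbered libraries share an animal or culture, which is not stated. Depth is unknown, and members under 300 bases rest on the least sequence.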
